A study of Mus musculus with 7 samples.

Results

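The genes for the mitochondrial ribosomal proteins were followed through the ventricles of mouse embryos that had lost Hand1. Members were all genes whose symbol starts with Mrps or Mrpl and a digit, without pseudogenes, which gave 77 of the 13701 genes in the deposited table. Polyadenylated RNA was sequenced from ventricles of embryos of mixed background at E11.5, in 7 libraries of 3 genotypes. The knockout (2 libraries) was homozygous for the floxed Hand1 allele and heterozygous for the Cre allele named Nkx Cre. The flox control (2 libraries) was homozygous for the same floxed allele and wild type for Cre, and the Cre control (3 libraries) was heterozygous for Nkx Cre and wild type for Hand1. The floxed alleles were thus shared by the knockout and the flox control, and the Cre allele by the knockout and the Cre control. The series describes the deletion as myocardial, so cells of other types in a ventricle would keep Hand1 where the Cre is not active. Replicates are the libraries that the labels list under 1 genotype, each with an identifier of its own. How many embryos went into a library is not given in the sources used here, so the p-values cover only the variation among these libraries, which may be technical. The question of the design was what the ventricle's RNA looks like without Hand1, which encodes a transcription factor of the basic helix-loop-helix class.

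Mitochondria carry their own ribosome, the mitoribosome, which translates the few messages of the mitochondrial genome, all of them for subunits of the oxidative phosphorylation complexes. Its ribosomal RNAs are made inside the mitochondrion, while every protein is encoded in the nucleus, made in the cytosol and imported. Part of the proteins descend from bacterial ribosomal proteins, and the rest were added in mitochondria. Heart muscle depends on this machinery for its supply of respiratory chain, and inherited defects in several of these genes cause cardiomyopathy in humans.

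Of the 77 genes, 26 encode proteins of the small subunit and 50 of the large subunit. Mrps36 was assigned to neither, since its product is now known as a component of a dehydrogenase complex. Bacterial homologues made up 46 members (16 small, 30 large) and mitochondria-specific proteins 30 (10 small, 20 large). Symbols can mislead, since Mrps30 and Mrps18a are named for the small subunit and belong to the large one under the unified names mL65 and mL66. The genes lie on 17 chromosomes. They are short, with a median summed exon length of 1053 bases against 2993 for all genes in the table, from 407 bases (Mrps21) to 6712 (Mrpl17). Their median GC content of 49.7% was close to the 49.8% of all genes. For 23 members a protein-coding gene on the opposite strand started within 1000 bases upstream, in head-to-head orientation, by the starts of the deposited table or of GENCODE for genes not in it, and which members these are depends on the starts used. One of these pairs joins a protein of each subunit, with the starts of Mrps11 and Mrpl46 42 bases apart.

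RefSeq promoters (build GRCm38.p6, from 250 bases before to 50 after the start, the first listed for each gene) were matched by symbol for 68 of the 77 members. Motifs were searched on both strands in these 300 bases. The letters GCATGCG, from the centre of the site of nuclear respiratory factor NRF1, occurred in 8 of the 68 (11.8%), in 6.51% of the promoters of all genes in the table and in 3.64% of all promoters. Matches on opposite strands can overlap, because these letters are part of a palindrome. The letters CCGGAAG, a site of ETS factors such as GABP, occurred in 24 (35.3%), against 17.5% and 9.12%. The letters AAGATGG, from the site of YY1, occurred in 13 (19.1%), against 7.08% and 6.48%. At least 1 of these 3 motifs was held by 36 of the 68 promoters, a share that was not counted over all genes. Other letters searched were not more frequent in members, or hardly so. GGGCGG, from the site of SP1, occurred in 34 (50%), against 65.2% of the promoters of genes in the table. CCAAT occurred in 27 (39.7%), against 38.5%, and TATAAA in 4 (5.88%), against 6.90%. The E-box CATCTG, a form bound by HAND dimers with E proteins, occurred in 6 (8.82%), against 11.3% of the promoters of genes in the table. These matches are letters in a window and not measured binding, and their number depends on the letters chosen, which were short cores of the known sites. Promoters of 3 members are shown 5′ to 3′ because the results turn on these genes, with matches to the NRF1, ETS and YY1 letters in capitals on either strand. Mrpl17 had the highest value in knockout replicate 1 of the members with both knockouts above all controls, and Mrpl33 and Mrps27 had the highest and lowest values of knockout replicate 2 relative to the controls. They lie at chr7:105811038-105811337 (minus strand), chr5:31613701-31614000 (plus strand) and chr13:99344536-99344835 (plus strand) in the order printed.
Mrpl17: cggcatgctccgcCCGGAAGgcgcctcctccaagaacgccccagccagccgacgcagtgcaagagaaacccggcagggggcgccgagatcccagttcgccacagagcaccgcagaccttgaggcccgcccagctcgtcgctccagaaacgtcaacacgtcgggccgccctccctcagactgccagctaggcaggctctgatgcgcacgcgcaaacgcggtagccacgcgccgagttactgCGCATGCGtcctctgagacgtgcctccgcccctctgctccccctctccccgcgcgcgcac
Mrpl33: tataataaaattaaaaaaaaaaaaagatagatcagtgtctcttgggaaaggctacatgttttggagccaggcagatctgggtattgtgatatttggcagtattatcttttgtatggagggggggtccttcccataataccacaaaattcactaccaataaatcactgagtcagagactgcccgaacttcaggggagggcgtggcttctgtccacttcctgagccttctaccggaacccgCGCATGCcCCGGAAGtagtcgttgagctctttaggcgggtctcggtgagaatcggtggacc
Mrps27: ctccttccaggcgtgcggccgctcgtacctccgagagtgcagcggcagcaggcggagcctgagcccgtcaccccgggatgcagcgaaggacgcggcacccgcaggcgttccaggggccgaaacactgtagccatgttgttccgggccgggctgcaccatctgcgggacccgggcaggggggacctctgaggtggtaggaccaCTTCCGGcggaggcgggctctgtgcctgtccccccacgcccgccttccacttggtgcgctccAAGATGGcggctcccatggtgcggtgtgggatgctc
Mrpl17 holds 2 overlapping NRF1 matches and 1 ETS match, Mrpl33 holds 1 NRF1 and 1 ETS match, and Mrps27 holds 1 ETS and 1 YY1 match. The genes at both extremes of knockout replicate 2, Mrpl33 and Mrps27, thus both carry the ETS letters.

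The libraries held 18975283 (knockout replicate 2) to 28346700 (knockout replicate 1) counts. Hand1 was counted 37 and 19 times in the knockouts, 875 and 1272 times in the flox controls and 1852 to 2465 times in the Cre controls. Ventricular cardiomyocyte markers (6 of 6 measured) summed to 17885 CPM (read counts scaled to library size with TMM factors) in knockout replicate 2, to 33419 in knockout replicate 1 and to 20067 to 32783 in the controls. Knockout replicate 2 stood apart. Its highest correlation of log2 CPM with any other library was 0.927, with flox control replicate 1. Each other library had a partner at 0.978 or more. In it, erythroid markers (5 of 6 listed were measured) summed to 14140 CPM against 2943 in the other knockout and 3676 to 8006 in the controls. Its endothelial and endocardial markers (5 of 5) summed to 217 CPM against 775 in the other knockout and 690 to 963 in the controls, and its cushion mesenchyme markers (3 of 3) to 191 CPM against 367 and 443 to 607. Its atrial markers (4 measured) summed to 8907 CPM against 4967 and 4581 to 5760, and its epicardial markers (4 measured) to 231 CPM against 309 and 242 to 302. Taken as log2 CPM minus the mean of the controls, the median atrial marker was at 0.56 in knockout replicate 2. It was at -0.70 in knockout replicate 1 and at -0.25 to 0.16 in the controls. The lowest atrial value in any library was 0.105 CPM. None of the markers measured in these lists was at 0 in any library. Their part in the results below was not tested, and the main fitted values below are given with and without knockout replicate 2. By their identifiers, both knockouts share the prefix NT with flox control replicate 2 and with no other library, and what the prefix stands for is not given in the sources used here.

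Per unit of length, the mitochondrial ribosomal protein genes spanned a wide range of levels. The highest mean levels over the 7 libraries, in RPKM (TMM-scaled CPM per 1000 bases of summed exon length), belonged to Mrpl42, Mrpl12, Mrpl33, Mrpl30, Mrpl52 and Mrpl54, all of the large subunit. In the 5 controls Mrpl42 (mL42, mitochondria-specific) averaged 166 ± 41.9 RPKM (SD, n = 5). Mrpl12, whose product forms the stalk that recruits the translation factors, averaged 135 ± 17.8 RPKM (SD, n = 5). Mrpl33, Mrpl54, Mrpl30 and Mrpl52 followed at 98.5 ± 31.6, 97.7 ± 8.59, 97.2 ± 24.2 and 94.0 ± 15.9 RPKM (SD, n = 5 each), and these 4 did not differ beyond their spread. The order depends on the length used, and levels per annotated transcript were not computed. Mrpl42 has 666 bases of summed exons and a longest GENCODE transcript of 3277 bases, and Mrpl33 has 466 and 2741. For Mrpl54 the 2 lengths are close, at 587 and 604 bases. At the low end stood Mrpl1, Mrpl23, Mrpl17 and Mrps25. Mrps25 averaged 5.38 ± 0.396 RPKM and Mrpl17 6.01 ± 0.450 RPKM (SD, n = 5 each), the members with the longest summed exons. Exons of a gene on the opposite strand cover 58.3% of the length of Mrps25, and strand use in counting is not given in the sources used here, so its level is uncertain. Overlaps with other genes' exons were found for 9 members in all, 3 on the same and 6 on the opposite strand. The fewest reads fell on Mrpl23, with 144 to 228 counts per library, so no member was near the limit of detection.

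**Figure D1:**
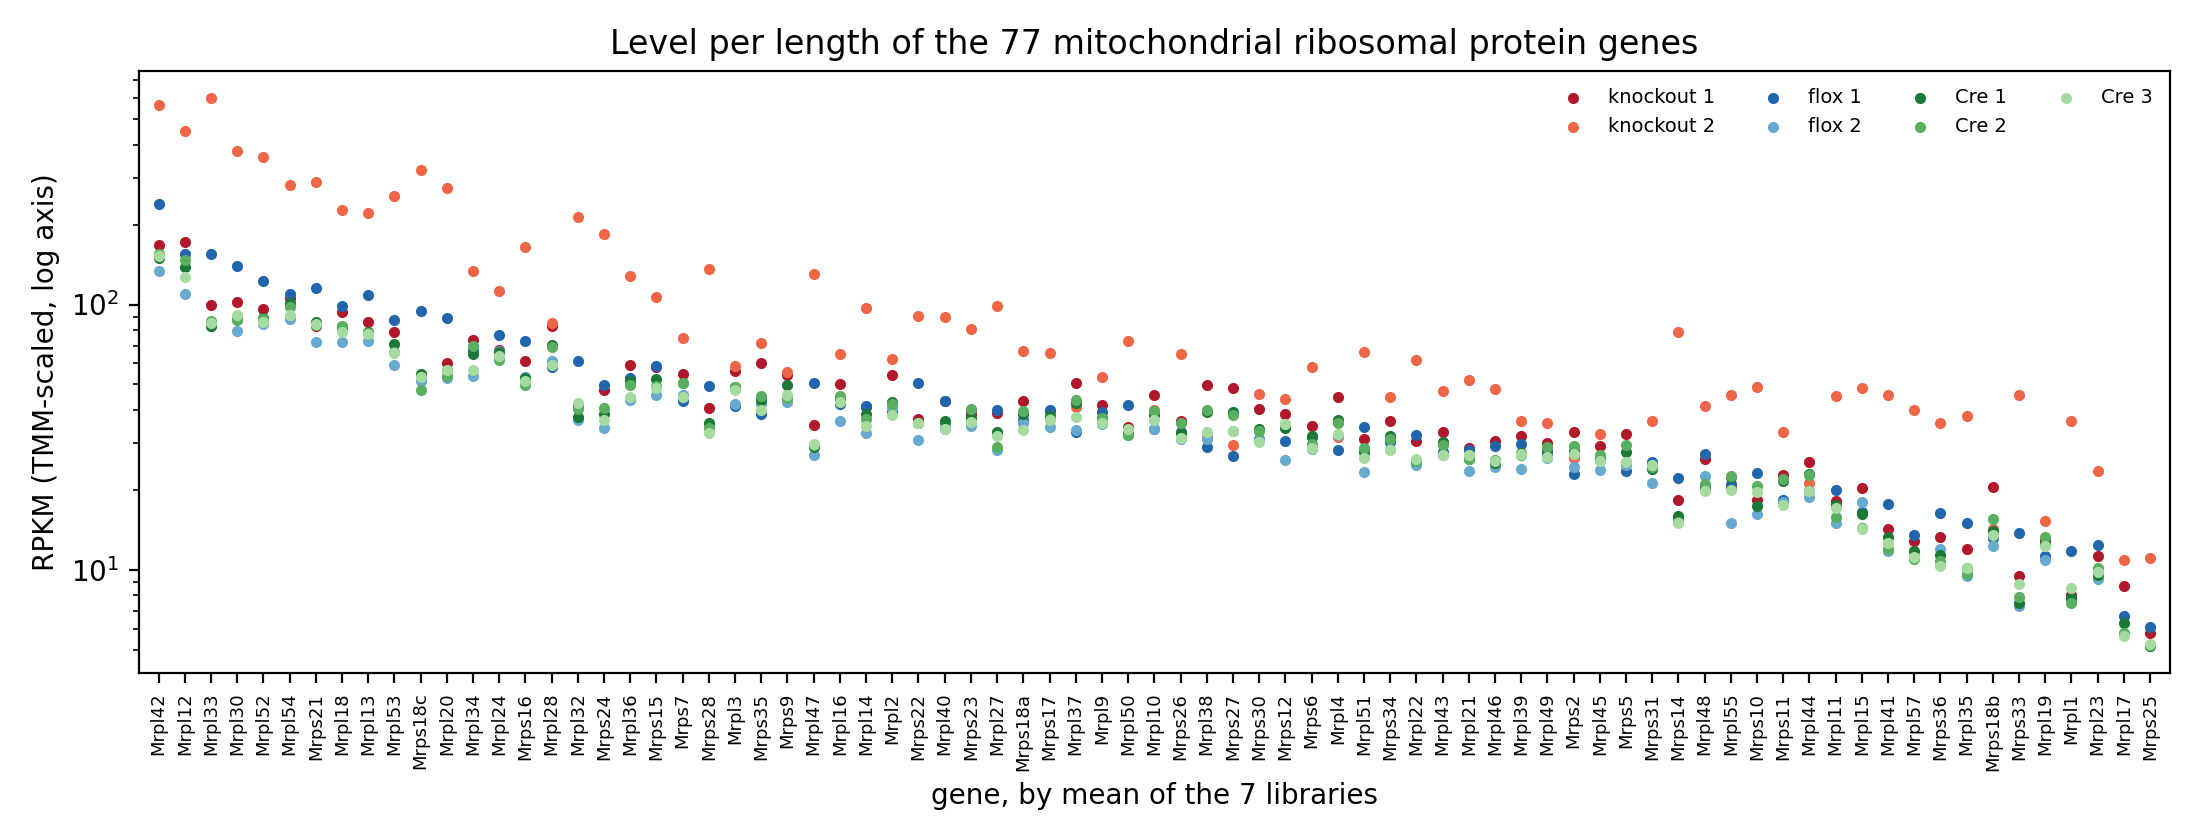
Level per length of each of the 77 genes in each of the 7 libraries, as TMM-scaled RPKM on a log axis, ordered by the mean of the 7 libraries and coloured by library. Knockout replicate 2 is the highest point for 68 genes and knockout replicate 1 for the other 9.

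The 77 genes together took 0.388% of all counts in knockout replicate 1 and 0.687% in knockout replicate 2. The share was 0.395% and 0.312% in the first and second flox control and 0.343%, 0.333% and 0.331% in the Cre controls. The Wilson 95% intervals, which cover counting error only, were as narrow as 0.683% to 0.691% for knockout replicate 2. By group the shares were 0.538% ± 0.211 (knockout, SD, n = 2), 0.353% ± 0.0586 (flox control, SD, n = 2) and 0.335% ± 0.00667 (Cre control, SD, n = 3). One knockout library thus held most of the surplus, and the other knockout library fell between the flox controls.

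Gene by gene, most members lay above the mean of the controls in both knockout libraries, at different distances. Deviations were taken as log2 CPM minus the mean of the 5 controls. The median deviation of the 77 genes was 0.18 in knockout replicate 1 and 1.08 in knockout replicate 2. In the flox controls it was 0.17 and -0.13, and in the Cre controls 0.02, 0.00 and -0.06. Knockout replicate 1 thus had about the same median as flox control replicate 1, while knockout replicate 2 stood far above every other library. The 2 knockouts did not share a pattern across the 77 genes, since their deviations correlated at r = -0.62. Those of knockout replicate 2 and flox control replicate 1 correlated at r = 0.91. The genes of a library are not independent, and flox control replicate 1 is part of the mean that was subtracted. The median of all genes tested was -0.02 in both knockouts. In knockout replicate 1, 70 of 77 members lay above the mean of the controls, against 46.9% of all genes. In knockout replicate 2 this held for 72 of 77, against 49.3%. A member lay above every control in knockout replicate 1 in 35 cases (24.7% of all genes) and in knockout replicate 2 in 69 cases (40.6% of all genes), and no member lay below every control in either. As these are bulk libraries, a change in the share of a cell type and a change in RNA per cell cannot be told apart.

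**Figure D2:**
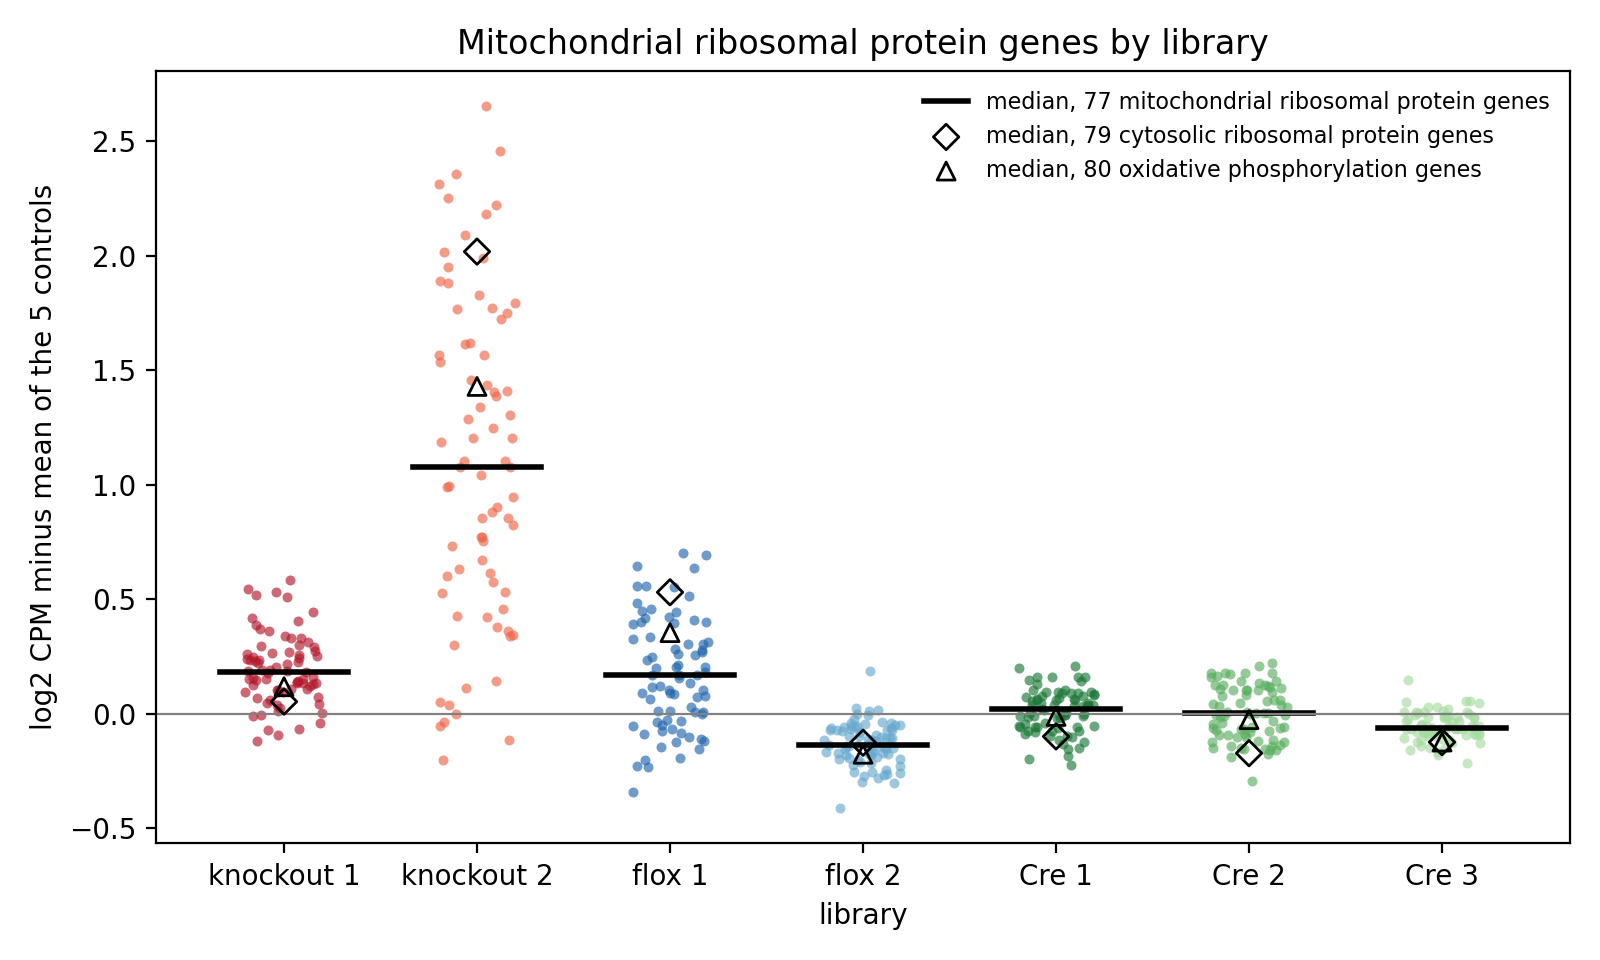
Each point is 1 of the 77 genes, as log2 CPM minus the mean of the 5 controls, with a line at the median of each library. Open diamonds and triangles give the medians of 79 cytosolic ribosomal protein genes and 80 nuclear-encoded oxidative phosphorylation genes. The medians of knockout replicate 2 are 1.08, 2.02 and 1.43, and those of knockout replicate 1 are 0.18, 0.05 and 0.12.

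Genes of the cytosolic ribosome and of oxidative phosphorylation deviated further in knockout replicate 2. The cytosolic ribosomal protein genes had a median deviation of 2.02 there and 0.05 in knockout replicate 1. Nuclear-encoded subunits of oxidative phosphorylation had 1.43 and 0.12. In flox control replicate 1 the medians were 0.53 for the cytosolic ribosomal proteins and 0.35 for the oxidative phosphorylation subunits, against 0.17 for the mitochondrial ribosomal proteins. In knockout replicate 1 the order was the opposite, with the highest of the 3 medians in the mitochondrial ribosomal proteins.

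In the comparison of genotypes, all 77 genes had a higher fitted mean in the knockout than in either control group, and none passed the test. Against the flox controls the log2 fold change was above 0 for 77 of 77 members, against 52.1% of the 13695 genes tested, with a median of 0.66 (all genes 0.02). Against the Cre controls it was above 0 for 77 of 77, against 50% of all genes, with a median of 0.70 (all genes -0.00). Against the mean of both control groups it was above 0 for 77 of 77, against 50.9%, with a median of 0.69 (all genes 0.01). These comparisons share the knockout libraries and are not independent of each other. By edgeR's quasi-likelihood test with Benjamini-Hochberg adjustment over all genes, 0 members had an adjusted p below 0.05 in any of them. Of all genes, 0.0146%, 0.0146% and 0.0219% were called, in the same order. The lowest adjusted p among members was 0.415 against the flox controls, 0.250 against the Cre controls and 0.231 against both. An unadjusted p below 0.05 was reached by 18, 43 and 51 members with higher values in the knockout, against 3.01%, 8.67% and 8.92% of all genes. DESeq2 called 2, 4 and 8 members higher and 0 lower, against 0.672%, 1.59% and 1.69% of all genes called higher and 1.53%, 2.46% and 2.7% called lower, and without flox control replicate 1 it called 0 in each.

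The size of this difference changed most with 1 library. Without knockout replicate 2, the medians were 0.16 against the flox controls, 0.23 against the Cre controls and 0.19 against both, and 55, 74 and 70 members remained above 0 (46.9%, 50.8% and 48% of all genes). DESeq2 then called 6, 0 and 2 members higher, beside 3.1%, 0.934% and 1.48% of all genes. Without knockout replicate 1 they were 1.04, 1.09 and 1.07, and edgeR called 67, 62 and 67 members higher, beside 26.7%, 31.9% and 31.1% of all genes. In these fits the lone knockout library was assumed to vary like the other groups. Among the 3 NT libraries alone the median against the flox control was 0.78, with 77 of 77 members above 0 and 0 called, and no Cre control carries the prefix. With the prefix as a block over all 7 libraries the medians were 0.78, 1.03 and 0.90, with 0 called in each.

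The direction held without TMM scaling against the flox controls, where 77 of 77 were above 0. Against the Cre controls it held for 74 of 77 while the median of all genes moved to -0.10, and against the flox controls that median moved to -0.11.

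Both knockouts lay above both flox controls for 34 members (12.4% of all genes), above the 3 Cre controls for 61 (16.4%) and above all 5 controls for 27 (8.19%). No member had both knockouts below the flox controls, the Cre controls or all 5, where 16.3%, 18.9% and 11.6% of all genes did. Of the 27 genes, 8 belong to the small and 19 to the large subunit, close to the 26 and 50 measured, and 17 are bacterial homologues. Their lengths ran from 646 to 6712 bases with a median of 1067, so they were not the shortest members. Flox control replicate 1 was the highest control for 7 of the 27 and for 46 of all 77.

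A few genes were high to a like degree in both knockouts. Mrps35 (mS35, a mitochondria-specific protein of the small subunit, chr6:147042770-147070902, plus strand, mm10) had 64.0 and 76.4 CPM in knockout replicates 1 and 2, 41.1 and 45.1 in flox replicates 1 and 2, and 46.5, 48.4 and 42.6 in the Cre controls. Both knockouts lay well above every control, and the 5 controls stayed within a narrow band. Its log2 fold change was 0.70 ± 0.18 (SE, edgeR) against the flox controls and 0.61 ± 0.16 (SE, edgeR) against the Cre controls, with adjusted p-values of 0.415 and 0.295. DESeq2 gave it adjusted p-values of 0.0119 and 0.0113, the only member it called against both groups. Without knockout replicate 2, DESeq2 still called it against the flox controls, and edgeR gave 0.58 ± 0.14 (SE, edgeR) and 0.50 ± 0.13 (SE, edgeR) against flox and Cre controls. With a correction for gene length and GC content its log2 fold change against the Cre controls was -0.04 ± 0.37 (SE, edgeR), on the other side of 0.

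Mrpl17 (bL17m, a bacterial homologue near the exit of the peptide tunnel, chr7:105803782-105811087, minus strand) had 58.2 and 72.8 CPM in knockout replicates 1 and 2, 44.8 and 38.3 in flox replicates 1 and 2, and 42.1, 38.6 and 37.8 in the Cre controls. Here too both knockouts stood clear of all controls. The log2 fold change was 0.66 ± 0.19 (SE, edgeR) against the flox controls and 0.73 ± 0.17 (SE, edgeR) against the Cre controls, with adjusted p-values of 0.480 and 0.250, and without knockout replicate 2 it was 0.50 ± 0.15 (SE, edgeR) and 0.58 ± 0.14 (SE, edgeR). In DESeq2 the adjusted p was 0.00566 against the Cre controls and 0.0534 against the flox controls. It is the longest member, and the length and GC correction raised its value, to 0.83 ± 0.11 (SE, edgeR, adjusted p = 0.0593) against both control groups. DESeq2 with that correction called it in all 3 comparisons with the knockout, in which 1.29%, 2.96% and 3.13% of all genes were called higher.

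Mrpl2 (uL2m, which lies beside the peptidyl transferase centre, chr17:46646248-46650132, plus strand) had 54.7 and 63.2 CPM in the knockouts, 39.8 and 41.7 in the flox controls and 43.6, 42.6 and 38.9 in the Cre controls. Its log2 fold change against both control groups was 0.52 ± 0.14 (SE, edgeR), with an adjusted p of 0.290 and 0.00998 in DESeq2. Without knockout replicate 2 it was 0.43 ± 0.12 (SE, edgeR), with the length correction 0.09 and with length and GC 0.25. Both knockouts were above every control. Mrps30 (mL65, large subunit, mitochondria-specific) had 64.1 and 73.1 CPM in the knockouts, 49.4 and 48.9 in the flox controls and 54.2, 52.9 and 48.2 in the Cre controls, and Mrpl28 (bL28m, a bacterial homologue) had 88.3 and 90.9 CPM in the knockouts, 61.9 and 65.2 in the flox controls and 74.9, 73.7 and 62.9 in the Cre controls. In both genes the knockouts lay close together and above all controls, and both were picked for description after their values were seen. With the length and GC correction the log2 fold change against both control groups was -0.09 for Mrps30 and 0.21 for Mrpl28.

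**Figure D3:**
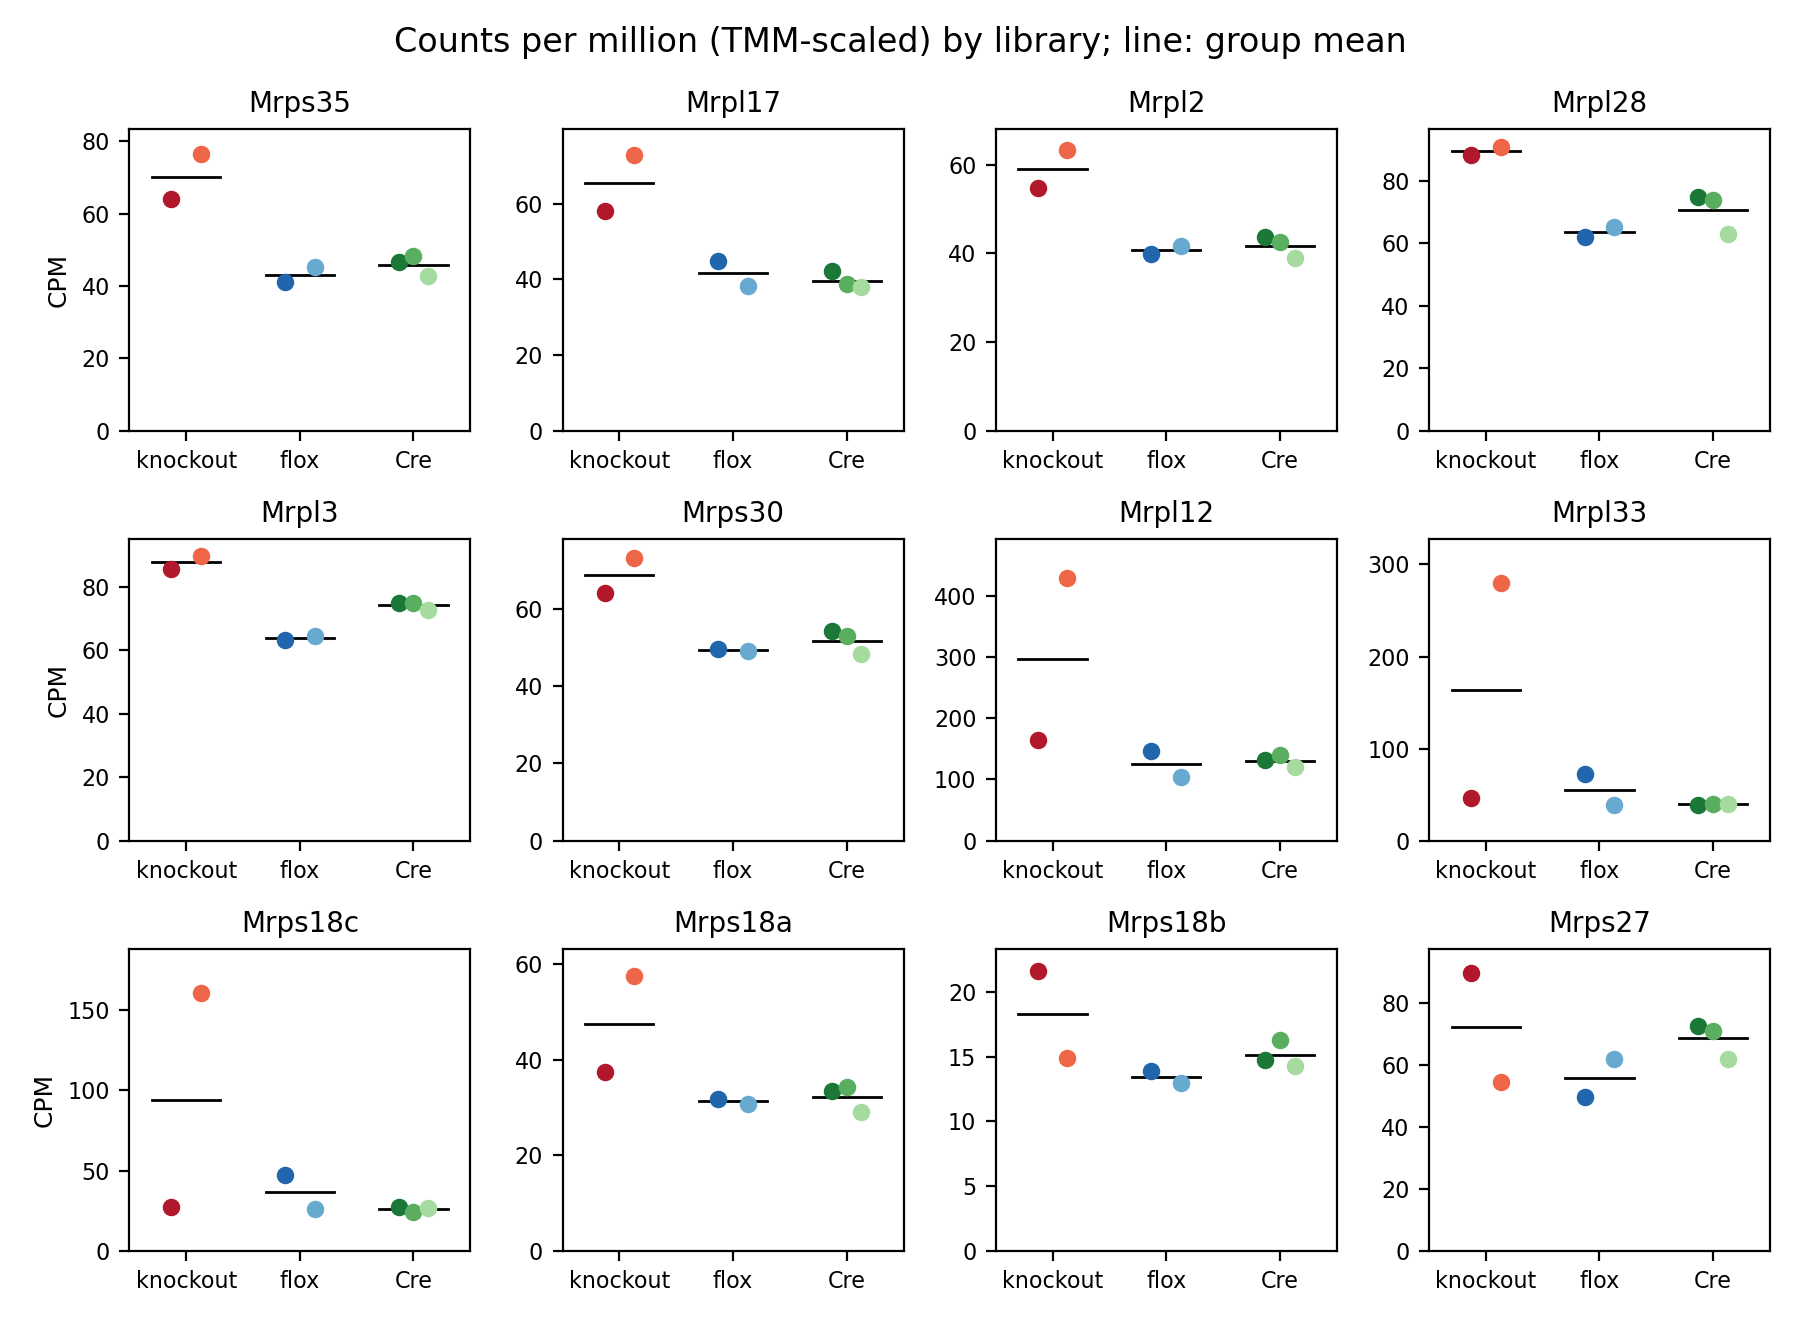
TMM-scaled CPM of 12 members in each library, with replicate numbers running from dark to light within a group and group means as lines; every axis starts at 0. In the 6 genes from Mrps35 to Mrps30 both knockouts lie above all 5 controls, in Mrpl33 and Mrps18c 1 knockout lies far above the rest, and in Mrps18b and Mrps27 the other knockout is the highest.

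Genes linked to heart disease did not behave alike. Mrpl3 (uL3m), mutated in human cardiomyopathy, had 85.7 and 89.8 CPM in the knockouts, 63.2 and 64.4 in the flox controls and 75.0, 75.0 and 72.6 in the Cre controls. Both knockouts were above all controls, and the flox controls were below the Cre controls. The log2 fold change was 0.46 ± 0.16 (SE, edgeR) against the flox controls and 0.24 ± 0.15 (SE, edgeR) against the Cre controls, and DESeq2 called the first (adjusted p = 0.0131) and not the second (0.157). With the length and GC correction these values were 0.20 and -0.11. Mrpl44 (mL44, a protein with a ribonuclease III fold), mutated in human hypertrophic cardiomyopathy, had 36.3 and 30.3 CPM in the knockouts, 28.2 and 26.8 in the flox controls and 32.7, 32.4 and 28.1 in the Cre controls. Only knockout replicate 1 lay above the range of the controls. Mrps14 (uS14m), mutated in human disease with cardiomyopathy, had 36.1 and 156 CPM in the knockouts, 43.8 and 30.7 in the flox controls and 31.5, 29.8 and 29.6 in the Cre controls. The value of knockout replicate 2 was several times any other, and knockout replicate 1 lay below flox control replicate 1. Mrps22 (mS22), another gene of human mitochondrial disease with cardiomyopathy, had 45.0 and 111 CPM in the knockouts, 61.7 and 37.5 in the flox controls and 43.3, 43.3 and 43.5 in the Cre controls, so that knockout replicate 1 lay inside the control range and knockout replicate 2 above it.

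The stalk of the large subunit, which recruits the translational GTPases, is built from Mrpl12 anchored on Mrpl10 with Mrpl11 at its base. Mrpl12 had 164 and 429 CPM in the knockouts, 147 and 104 in the flox controls and 132, 139 and 120.4 in the Cre controls. Both knockouts were above every control, and knockout replicate 2 far above knockout replicate 1. Its log2 fold change against both control groups was 1.21 ± 0.37 (SE, edgeR) with an adjusted p of 0.310, and 0.38 ± 0.19 (SE, edgeR) without knockout replicate 2. Mrpl10 had 77.0 and 67.6 CPM in the knockouts, 57.1 and 56.9 in the flox controls and 64.6, 66.7 and 61.6 in the Cre controls, higher in both knockouts than in any control and higher in replicate 1 than in replicate 2. Mrpl11 had 52.5 and 130.0 CPM in the knockouts, 57.8 and 43.3 in the flox controls and 50.5, 45.7 and 49.3 in the Cre controls, with only knockout replicate 2 above the controls. Proteins that sit together in the ribosome thus differed in the pattern of their messages across these libraries.

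Other members of the large subunit were high chiefly in knockout replicate 2. Mrpl33 (bL33m), among the shortest members at 466 bases, had 46.4 and 279.8 CPM in the knockouts, 72.2 and 38.7 in the flox controls and 38.8, 40.2 and 39.6 in the Cre controls. Flox control replicate 1 was the second highest library and knockout replicate 1 lay below it. The log2 fold change against the Cre controls was 2.04 ± 0.69 (SE, edgeR), the highest of all members, with an adjusted p of 0.324, and without knockout replicate 2 it was 0.25 ± 0.29 (SE, edgeR). Mrpl1 (uL1m), which forms the mobile stalk near the exit site for transfer RNA, had 33.6 and 153 CPM in the knockouts, 49.2 and 32.6 in the flox controls and 32.7, 31.4 and 35.7 in the Cre controls, and its knockouts lay on either side of the control mean. Mrpl15 (uL15m) had 85.7 and 203 CPM in the knockouts, 69.5 and 75.5 in the flox controls and 68.1, 60.3 and 59.8 in the Cre controls, with both knockouts above all controls. Its log2 fold change against the Cre controls was 1.20 ± 0.35 (SE, edgeR) with an adjusted p of 0.324, and 0.0449 in DESeq2, and without knockout replicate 2 it was 0.47 ± 0.13 (SE, edgeR). Mrpl36 and Mrpl34, both short bacterial homologues, also had both knockouts above all controls, with deviations of 0.29 and 1.41 for Mrpl36 and 0.25 and 1.10 for Mrpl34. With the length correction, the log2 fold change of Mrpl34 against both control groups was -0.03.

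The Mrps18 genes descend from 1 bacterial gene and now encode proteins at 3 places of the mitoribosome. The classes used here follow the unified names, so Mrps18a and Mrps18b were counted as mitochondria-specific despite this descent. Mrps18c (bS18m, at the site of bacterial S18) had 26.9 and 161 CPM in the knockouts, 47.4 and 25.9 in the flox controls and 27.4, 23.9 and 26.8 in the Cre controls. Knockout replicate 2 was far above all others, and knockout replicate 1 lay inside the range of the controls. Mrps18b (mS40, elsewhere in the small subunit) had 21.6 and 14.9 CPM in the knockouts, 13.9 and 12.9 in the flox controls and 14.8, 16.3 and 14.3 in the Cre controls, with knockout replicate 1 on top and knockout replicate 2 inside the control range. Mrps18a (mL66, in the large subunit) had 37.4 and 57.6 CPM in the knockouts, 31.7 and 30.8 in the flox controls and 33.3, 34.2 and 29.1 in the Cre controls, with both knockouts above all controls. Mrps18b and Mrps18c were the members with the highest and lowest deviation in knockout replicate 1 (0.58 and -0.12), and in knockout replicate 2 their order was the reverse (0.05 and 2.46). Their exon lengths were 1053 bases for Mrps18b and 502 for Mrps18c, with GC contents of 52.6% and 44.5%.

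In the small subunit, Mrps12 (uS12m, at the decoding centre) had 26.4 and 30.2 CPM in the knockouts, 20.8 and 17.8 in the flox controls and 23.4, 24.2 and 24.3 in the Cre controls. Both knockouts were above all controls and flox control replicate 2 was the lowest library. Its log2 fold change was 0.55 ± 0.17 (SE, edgeR) against the flox controls and 0.24 ± 0.15 (SE, edgeR) against the Cre controls, with adjusted p-values of 0.509 and 0.412. With the length correction the values were 0.04 and -0.44, and with length and GC 0.08 and -0.31, so that the direction against the Cre controls turned. Mrps24 (uS3m), singled out after its values were seen as 1 of the 8 members that DESeq2 called against the mean of the control groups (adjusted p = 0.0497), had 47.8 and 186 CPM in the knockouts, 50.1 and 34.5 in the flox controls and 38.9, 41.0 and 36.9 in the Cre controls. Its knockout replicate 1 lay below flox control replicate 1, and its log2 fold change against both control groups was 1.53 ± 0.47 (SE, edgeR) with and 0.25 ± 0.19 (SE, edgeR) without knockout replicate 2.

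In 9 members knockout replicate 1 was higher than knockout replicate 2, and in these 9 it was the highest of all libraries. They were Mrpl4, Mrpl10, Mrpl37, Mrpl38, Mrpl44, Mrps2, Mrps5, Mrps18b and Mrps27, of which 5 are of the large and 4 of the small subunit. Mrps27 (mS27, a pentatricopeptide repeat protein) had 89.5 and 54.6 CPM in the knockouts, 49.5 and 61.8 in the flox controls and 72.6, 71.0 and 61.9 in the Cre controls. It was highest in knockout replicate 1, and knockout replicate 2 lay inside the control range. Mrpl37 (mL37) had 75.8 and 61.4 CPM in the knockouts, 49.6 and 50.5 in the flox controls and 63.5, 65.5 and 56.3 in the Cre controls, and Mrps2 (uS2m) had 68.7 and 54.6 CPM in the knockouts, 47.5 and 50.9 in the flox controls and 58.1, 61.0 and 56.8 in the Cre controls. In 8 of the 9, all but Mrpl10, knockout replicate 2 stayed inside the range of the controls. The lengths of the 9 ran from 1053 to 2079 bases with a median of 1434. The 9 members more than 2 log2 units above the control mean in knockout replicate 2 had a median of 872 bases. These ran from 466 to 4188 bases, a range that encloses that of the first 9.

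**Figure D4:**
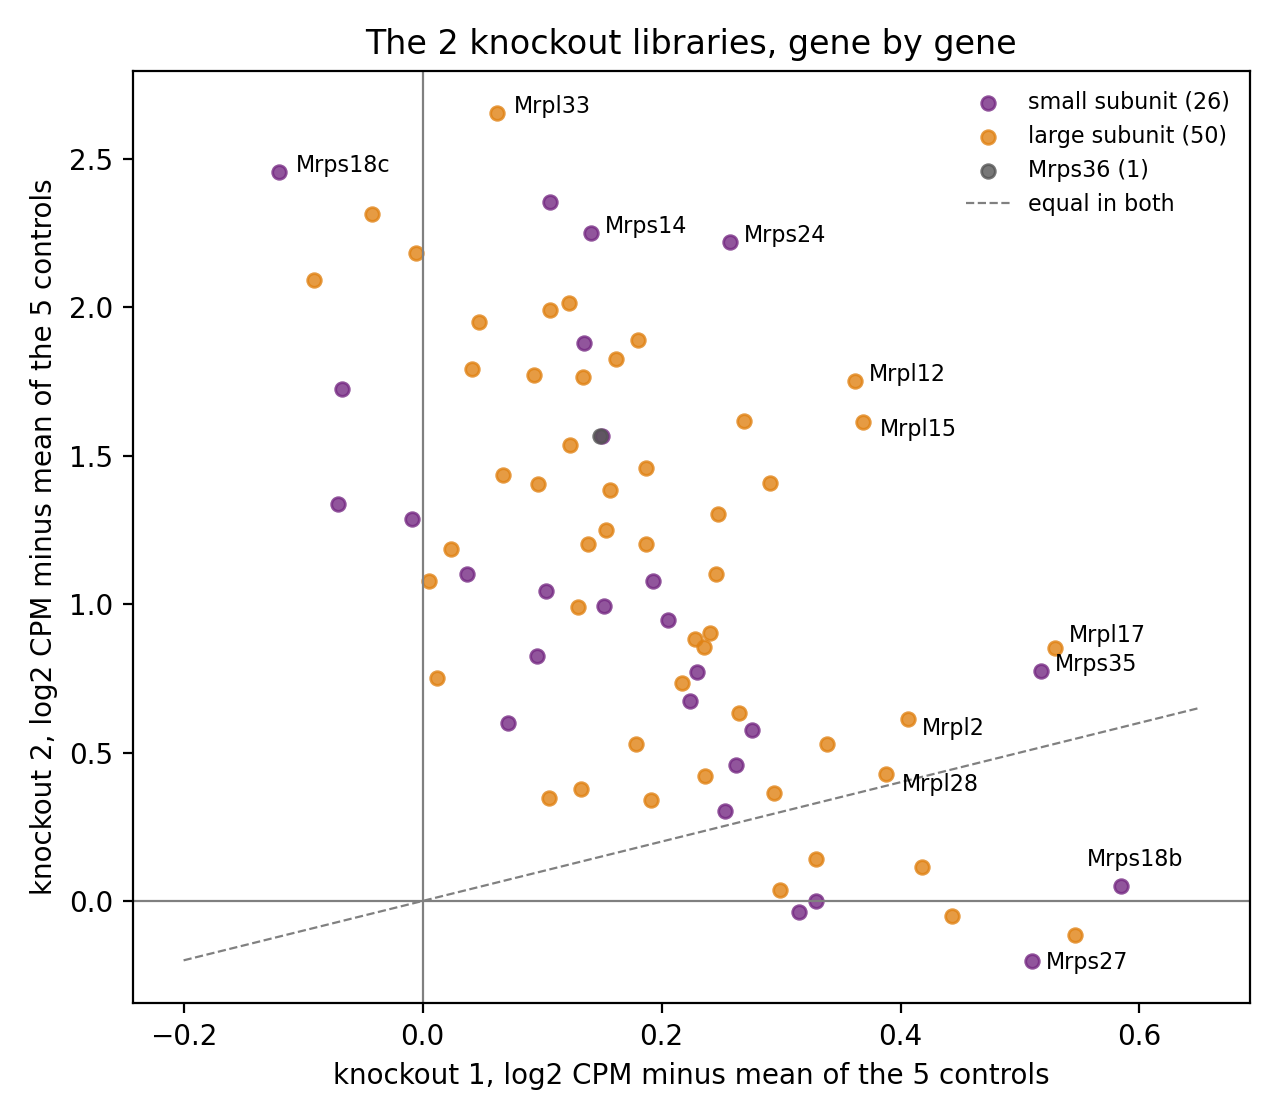
Deviation of each of the 77 genes from the mean of the 5 controls in knockout replicate 1 (horizontal) and knockout replicate 2 (vertical), both as log2 CPM, coloured by subunit. The dashed line marks equal deviation; 9 genes lie below it, and Mrps35, Mrpl17, Mrpl2 and Mrpl28 lie to the right of most genes and above or on it. The axes have different ranges, since knockout replicate 1 runs from -0.12 to 0.58 and knockout replicate 2 from -0.20 to 2.65.

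Between the control groups, members lay on both sides of 0. Between flox and Cre controls 42 members had a higher and 35 a lower fitted mean in the flox controls (49.9% of all genes were higher), and the median log2 fold change was 0.03. By edgeR 0 members were called, where 0% of all genes were, and 0 had an unadjusted p below 0.05, which 1.98% of all genes reached with a higher value in the flox controls. DESeq2 called 0 members, against 0.533% of all genes. The flox controls lay above all Cre controls for 5 members (17% of all genes) and below them for 12 (17.2%). Mrpl48 (mL48), Mrps36 and Mrps16 (bS16m) had the smallest p-values among the higher ones, with log2 fold changes of 0.28 ± 0.23 (SE, edgeR), 0.39 ± 0.41 (SE, edgeR) and 0.30 ± 0.40 (SE, edgeR). Among the lower ones these were Mrps12 at -0.31 ± 0.16 (SE, edgeR), Mrpl37 at -0.30 ± 0.17 (SE, edgeR) and Mrps2 at -0.25 ± 0.17 (SE, edgeR). The flox controls differed from each other, since replicate 1 was the highest control for 46 members and replicate 2 the lowest of all 7 libraries for 49. Without flox control replicate 1 the median between the control groups was -0.13 and without replicate 2 it was 0.13.

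By subunit, the median deviation of the 26 small subunit genes was 0.17 in knockout replicate 1 and 0.97 in knockout replicate 2, and that of the 50 large subunit genes was 0.18 and 1.19. Bacterial homologues had 0.18 and 1.20, and mitochondria-specific proteins 0.19 and 0.89. Knockout replicate 1 was nearly the same in every class, and in knockout replicate 2 the classes lay further apart. Members whose promoter held the ETS letters had medians of 0.17 and 1.23, and those without 0.19 and 0.99. For the NRF1 letters the medians were 0.21 and 0.69 with them (8 members) and 0.16 and 1.10 without. For the YY1 letters they were 0.23 and 0.86 with them (13 members) and 0.16 and 1.10 without. In knockout replicate 2 the median was thus higher with the ETS letters and lower with the NRF1 or YY1 letters. The head-to-head partners Mrps11 and Mrpl46 had 23.7 and 34.5 CPM in the knockouts, 19.1 and 18.8 in the flox controls and 22.6, 22.9 and 18.2 in the Cre controls for Mrps11, and 31.4 and 49.4 CPM in the knockouts, 30.2 and 25.0 in the flox controls and 25.9, 26.6 and 26.4 in the Cre controls for Mrpl46. Both knockouts of both genes lay above all controls.

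Length and base composition went with the values of knockout replicate 2, and with those of some other libraries too. The shortest 26 members (407 to 938 bases) had a median deviation of 1.57 in it, the middle 25 had 0.82 and the longest 26 (1424 to 6712 bases) had 0.57. In flox control replicate 1 these medians were 0.36, 0.08 and 0.09, and in knockout replicate 1 they were 0.14, 0.23 and 0.17. Across the 77 genes, which share a library and are not independent, the correlation of the deviation with log2 length was r = -0.31 (Spearman rho = -0.43) in knockout replicate 2, r = -0.31 (rho = -0.39) in flox control replicate 1 and r = 0.20 (rho = 0.21) in knockout replicate 1. In flox control replicate 2 this length correlation was r = 0.31, and in the Cre controls it was r = 0.19, 0.10 and 0.28. It was weaker in the first 3 libraries when log2 length was taken from the longest GENCODE transcript. Then r was -0.18 (rho = -0.19) in knockout replicate 2 and -0.10 (rho = -0.12) in flox control replicate 1. In knockout replicate 1 it was 0.06 (rho = 0.01). The 26 members of lowest GC content had a median of 1.34 in knockout replicate 2, against 0.99 in the middle 25 and 1.03 in the 26 of highest GC content. The correlation of the deviation with GC content was r = -0.25 in knockout replicate 2 and r = 0.28 in knockout replicate 1. It was r = -0.35 and -0.07 in the flox controls and r = 0.45, 0.45 and -0.07 in the Cre controls. Over all genes the correlation with log2 length was r = -0.43 in knockout replicate 2 and r = -0.13 in flox control replicate 1. In knockout replicate 1 it was r = -0.18, opposite in sign to that of the members. With a smooth trend of gene length removed from each library, the members' median log2 fold changes were 0.25 against the flox controls, 0.14 against the Cre controls and 0.16 against both. Then 73, 57 and 67 members were above 0, against 57.4%, 51.5% and 53.8% of all genes, and edgeR called 0 (0.0146%, 0.0365% and 0.0219% of all genes).

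**Figure D5:**
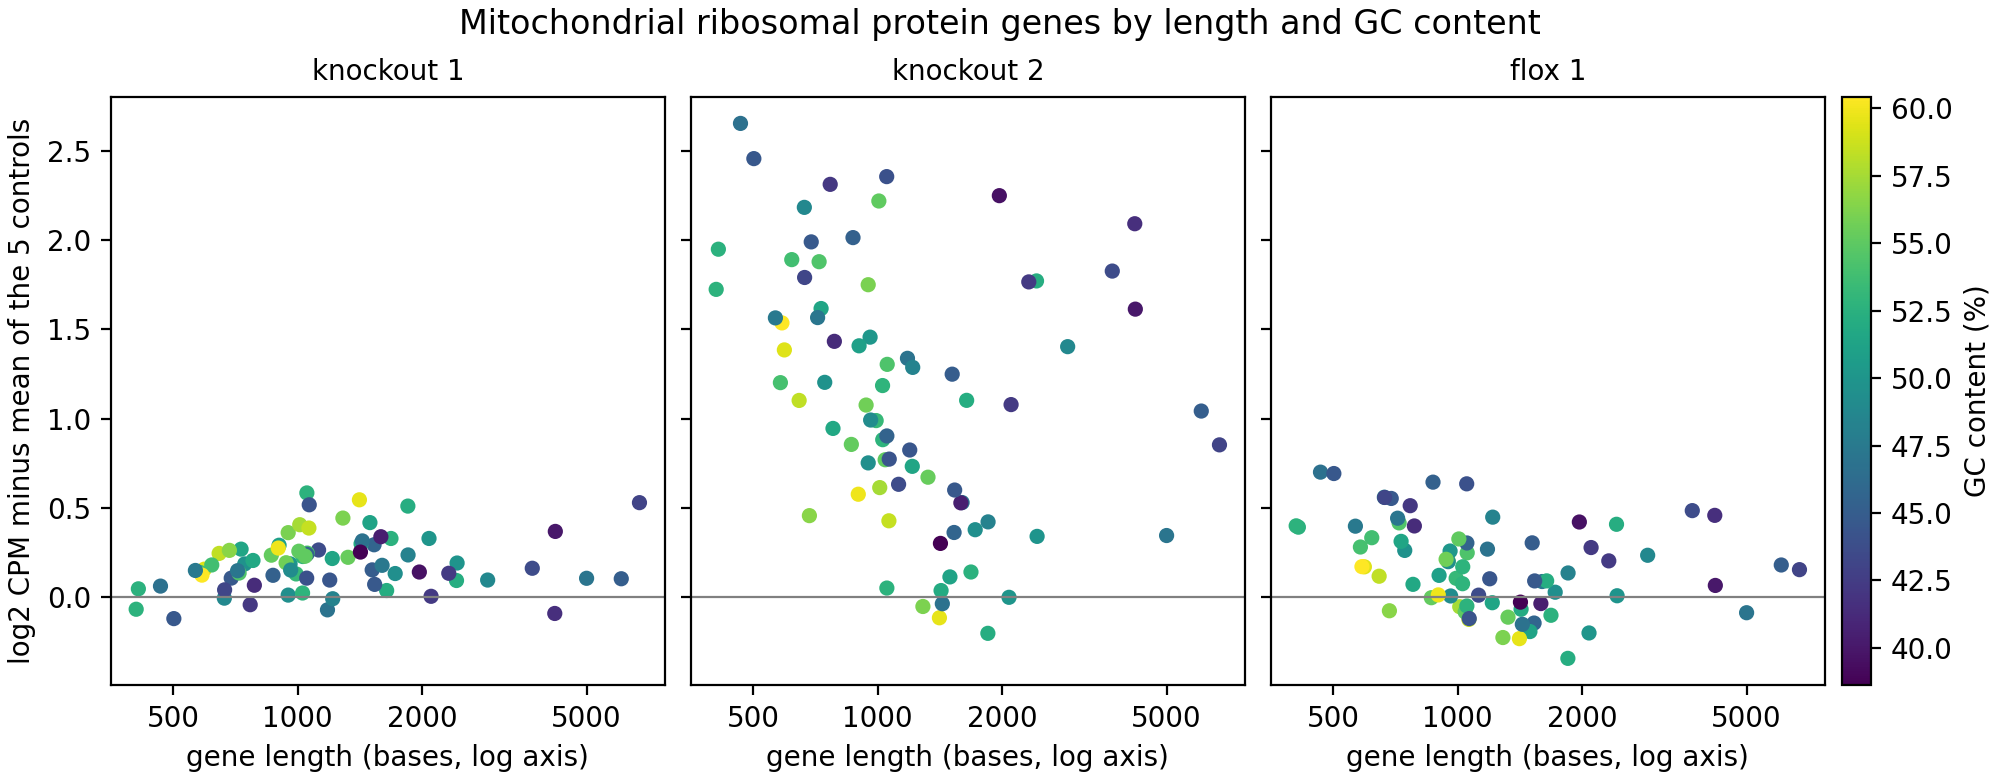
Deviation of each of the 77 genes from the mean of the 5 controls (log2 CPM) against summed exon length on a log axis, in knockout replicate 1, knockout replicate 2 and flox control replicate 1, coloured by GC content. In knockout replicate 2 the shortest genes reach the highest values (median 1.57 for the shortest 26), and in knockout replicate 1 no such slope is seen.

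Mitoribosome subunits that carry other names were split in the same way. All 6 measured (of 7 listed) were above 0 against the flox controls and 5 of 6 against the Cre controls, with medians of 0.66 and 0.55 (0.13 and 0.09 without knockout replicate 2), and none passed edgeR's or DESeq2's test. Chchd1, a small protein of the small subunit, had 52.7 and 425 CPM in the knockouts, 93.6 and 48.2 in the flox controls and 52.3, 50.1 and 54.3 in the Cre controls. Aurkaip1, also of the small subunit, had 65.7 and 161 CPM in the knockouts, 72.9 and 51.5 in the flox controls and 56.8, 57.9 and 54.5 in the Cre controls. In both, knockout replicate 2 stood far above the other libraries and knockout replicate 1 lay below flox control replicate 1. Ict1, a peptidyl-tRNA hydrolase built into the large subunit, had 41.8 and 85.9 CPM in the knockouts, 42.3 and 34.1 in the flox controls and 38.7, 41.5 and 36.2 in the Cre controls, and Gadd45gip1, near the tunnel exit of the large subunit, had 50.8 and 59.2 CPM in the knockouts, 34.0 and 39.7 in the flox controls and 45.4, 40.5 and 40.5 in the Cre controls. Gadd45gip1 was above all controls in both knockouts. The longer genes Dap3, a GTP-binding protein of the small subunit, and Ptcd3, a pentatricopeptide repeat protein at the entry of the messenger RNA, varied little. Dap3 had 88.7 and 73.8 CPM in the knockouts, 75.0 and 84.0 in the flox controls and 92.2, 89.3 and 86.6 in the Cre controls, and Ptcd3 had 119 and 122 CPM in the knockouts, 117 and 103 in the flox controls and 114, 121 and 113 in the Cre controls.

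Factors that work with the mitoribosome had smaller median differences than its proteins with all libraries. Without knockout replicate 2, the medians of the synthetases and of the assembly and modification genes against the flox controls were the larger. By edgeR none of the factors was called against either control group. Of 16 measured translation factors, 15 were above 0 against the flox controls and 9 against the Cre controls, with medians of 0.27 and 0.19 (0.15 and 0.11 without knockout replicate 2). Elongation factor Gfm1, which moves the ribosome along the message, had 188 and 59.9 CPM in the knockouts, 99.0 and 136 in the flox controls and 152, 170.1 and 139 in the Cre controls. Lrpprc, which stabilises mitochondrial messages, had 233 and 93.8 CPM in the knockouts, 132 and 182 in the flox controls and 211, 224 and 193 in the Cre controls. Both were lowest in knockout replicate 2, the library in which most ribosomal proteins were highest. The list as a whole did not follow these genes. The median deviation of the 16 factors was 0.23 in knockout replicate 2, 0.11 in knockout replicate 1 and -0.10 to 0.10 in the controls.

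Of the 22 mitochondrial aminoacyl-tRNA synthetases, which load transfer RNAs with amino acids, 17 were above 0 against the flox controls and 11 against the Cre controls, with medians of 0.18 and -0.00 (0.39 and 0.22 without knockout replicate 2). Their summed level was 2643 CPM in knockout replicate 1, 1371 in knockout replicate 2 and 1736 to 2484 in the controls, so the knockouts lay on either side of every control. Lars2, for leucine, had 1297 and 564 CPM in the knockouts, 884 and 1091 in the flox controls and 1379.7, 1353 and 1457 in the Cre controls, and Gars, which serves cytosol and mitochondria, had 407 and 185 CPM in the knockouts, 177 and 291 in the flox controls and 248, 261 and 210.4 in the Cre controls. DESeq2 called 1 gene in each comparison, Yars2 (tyrosine) higher against the flox controls (adjusted p = 0.0428) and Ears2 (glutamate) lower against the Cre controls (adjusted p = 7.36e-05), beside 0.672% of all genes called higher in the first comparison and 2.46% called lower in the second. Ears2 had 29.1 and 28.6 CPM in the knockouts, 41.2 and 36.3 in the flox controls and 50.7, 47.4 and 50.8 in the Cre controls, with both knockouts below all controls. Yars2 had 43.0 and 40.8 CPM in the knockouts, 30.3 and 29.5 in the flox controls and 33.1, 36.2 and 33.4 in the Cre controls, with both above.

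Of 21 measured genes for assembly and RNA modification of the mitoribosome, 19 and 14 were above 0 against flox and Cre controls (medians 0.29 and 0.24, and 0.22 and 0.13 without knockout replicate 2). C1qbp, a matrix protein needed for mitochondrial translation, had 209 and 189.6 CPM in the knockouts, 124 and 139 in the flox controls and 168, 188 and 147 in the Cre controls, and Dhx30, a helicase of mitochondrial RNA granules, had 133 and 58.9 CPM in the knockouts, 94.4 and 111 in the flox controls and 121, 125 and 113 in the Cre controls. Of 17 measured genes of mitochondrial transcription and its regulation, 10 and 10 were above 0 (medians 0.25 and 0.20, and -0.13 and -0.00 without knockout replicate 2). Gabpa, the DNA-binding subunit of the ETS factor GABP, had 109 and 293 CPM in the knockouts, 150.3 and 122 in the flox controls and 116, 104 and 116 in the Cre controls, and Lonp1, a matrix protease, had 172 and 51.5 CPM in the knockouts, 105 and 145 in the flox controls and 157, 166 and 135 in the Cre controls. Gabpa was highest and Lonp1 lowest in knockout replicate 2. DESeq2 called none of the genes of either list.

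In the authors' deposited table of the knockout against the Cre controls, all 77 members had a log2 fold change above 0, with a median of 0.67 and a range of 0.06 to 2.01. In the authors' deposited table a false discovery rate below 0.05 with a higher level in the knockout was given for 30 members and for 6.8% of all genes, and 0 members had such a rate with a lower level. The lowest rate among members there was 0.00226, for Mrpl33, followed by Mrps14 at 0.00252 and Mrps24 at 0.00421 in the authors' deposited table. These 3 are genes in which knockout replicate 1 lay below flox control replicate 1, a group that the deposited comparison does not include.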

How the data were processed

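For each gene and library the authors deposited a raw read count, per the file headers, beside a summed exon length. The log2 fold change, the p-value and the false discovery rate of knockout over Cre control were deposited as well. According to the submitters' processing notes the tools were STAR (version 2.4.2a) and featureCounts from Subread (version 1.5.0), with edgeR, on mm10. The annotation and strand use are not given in the sources used here. Without strand, reads of genes that overlap on opposite strands cannot be told apart. Counts were scaled with TMM factors and fitted with edgeR 4.0.16 (quasi-likelihood, robust, filterByExpr) in R 4.3.3, with 1 mean per genotype over all 7 libraries. All 77 members were among the 13695 genes tested, and p-values were adjusted over all of them at a threshold of 0.05. A prior count of 2 entered log2 CPM. DESeq2 1.42.0 and limma-voom (limma 3.58.1), other scalings and filters, the compared groups alone, the libraries whose identifiers begin with NT alone, the removal of each library, and smooth trends of length (mgcv 1.9.3) were alternatives. The joint length and GC trend, DESeq2 with that trend or without 1 library, and the prefix NT as a block in edgeR were added after seeing the data. The tests were checked on simulated counts with means and spreads taken from the controls. That check does not cover knockout libraries that differ from each other more than the controls do.

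The members and gene lists were chosen with earlier results of these data known. Genes named were the 6 highest and 4 lowest by mean RPKM, the 5 smallest p-values per knockout comparison and 3 each way between controls, and the 5 largest fold changes among members with both knockouts above all controls. The Mrps18 genes, 4 disease genes, 3 stalk genes, library extremes and the other subunits were named too, with called genes or the 2 most abundant of each further list. Mrps24, Mrps30, Mrpl28, Mrps11, Mrpl46 and the members listed as highest in knockout replicate 1 or called by DESeq2 were chosen after their values were seen. Gene annotation was GENCODE on GRCm38, which is mm10, and promoters came from RefSeq GRCm38.p6.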

Additional observations from a re-analysis of the deposited data

How the results depend on the processing

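The direction of the members' median log2 fold change in the comparisons with the knockout was above 0 under every alternative run, from 0.14 to 1.11 over all of them, and its size was not stable. With 1 library left out, edgeR's median ranged from 0.16 to 1.04 against the flox controls, from 0.23 to 1.09 against the Cre controls and from 0.19 to 1.07 against both, and DESeq2's from 0.17 to 1.06, 0.23 to 1.11 and 0.19 to 1.09. Both extremes came from leaving out a knockout. Members called ranged from 0 to 67, 0 to 62 and 0 to 67 in edgeR, and from 0 to 66, 0 to 62 and 0 to 67 in DESeq2, which called 6, 0 and 2 without knockout replicate 2 and 0, 0 and 0 without flox control replicate 1. With all libraries DESeq2 called 2, 4 and 8. With the length trend the medians were 0.25, 0.14 and 0.16, with length and GC 0.25, 0.16 and 0.23, and in DESeq2 with both trends 0.28, 0.19 and 0.25 with 1, 6 and 8 members called. Of 8 genes called by DESeq2 without and 9 with these trends over the 3 comparisons, 2 were shared (Mrpl15 and Mrpl17). Against flox, Cre and both, 4, 20 and 10 members fell to the other side of 0 with the length trend, 9, 16 and 12 with length and GC (6, 13 and 11 in DESeq2), 22, 3 and 7 without knockout replicate 2 and 1, 8 and 4 without knockout replicate 1. They include Mrpl34 against both groups with the length trend (-0.030) and Mrps35 against the Cre controls with length and GC (-0.042, and -0.011 in DESeq2). The causes were not tested. With the prefix NT as a block, 0, 4 and 1 members did, and 0 were called. Between the control groups the median ranged from -0.13 to 0.17. No paired analysis was possible because the labels give the groups no shared replicate numbers. Every member had at least 144 counts in each library, and what greater depth would change was not tested.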
